A study of Homo sapiens with 6 samples.

Results

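The serpin protease inhibitor family was examined in RH36 cells with and without added miR-27a. Its members were all probes whose gene name in the array files is SERPIN followed by a clade letter from A to I and a number, which gave 35 genes, 47 probes and 65 spots of the 41000 probes on the array. Values are given for 34 of these genes, with 46 probes and 55 spots, and the counts below cover these. RH36 cells come from an embryonal rhabdomyosarcoma (ERMS), a tumor with features of early skeletal muscle, and lack the PAX3/FOXO1 fusion. Cells were transiently transfected with pre-miR-27a, a synthetic precursor that raises miR-27a, or with a precursor used as negative control (pre-control), and each group holds 3 arrays that the labels call biological replicates. The labels give 10 nM of precursor. They place the pre-miR-27a arrays 48 h after transfection in one field and the test for overexpression at 24 h in another, and give no further time for the pre-control arrays. The paper's methods name a higher concentration and 24 h, and the sources do not settle which of these holds for the arrays. SERPINI2 had been selected on its difference and its detection flags in these same arrays, so those values are described here without a test, and the other members were taken by name.

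Serpins share a fold with an exposed reactive loop that serves as bait for a protease. In inhibitory members, cleavage of the loop makes the serpin change shape and trap the protease in a covalent complex, so each inhibitor is used up in the act. Many clade A, C, D, F and G serpins are secreted by the liver into plasma, where they restrain clotting, fibrinolysis, complement and neutrophil proteases, while clade B serpins lack a classical signal peptide and act mostly inside cells. Some members inhibit nothing: SERPINA6 and SERPINA7 carry hormones, and SERPINH1 is a collagen chaperone.

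The RNA added to the cells is shown here because it defines the comparison. RefSeq (GRCh38.p14) places mature miR-27a-3p at chr19:13836447-13836467 on the minus strand, and capitals mark the seed, bases 2 to 8, through which a miRNA pairs with its target transcripts.
hsa-miR-27a-3p: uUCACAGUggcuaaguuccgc
No transcript sequence was used here, so whether a serpin transcript holds a match to this seed was not analysed.

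Slide 1 carried the pre-control arrays only and slide 2 the others only, so an effect of the slide and one of the transfection cannot be told apart. The background that the scanner software subtracted had a median of 163.2 to 177.9 intensity units in the pre-control group and 69.6 to 73.7 in the pre-miR-27a group, a gap that bears most on dim probes and whose part in the results below was not tested. A signal well above background, by the flag of the software, was found for 69.9% to 73.9% of the spots of pre-control arrays and for 74.1% to 78.0% after pre-miR-27a. Of 9 myogenic marker genes on the array, 8 were well above background on every pre-control array, among them DES, MYOD1 and MYOG, and MYF5 was not. The same held for 2 of 8 hepatocyte, 1 of 6 pancreatic acinar, 3 of 8 squamous epithelial, 1 of 5 leukocyte and 3 of 5 fibroblast markers. Values below are log2 of the quantile-normalized signal of one probe per gene, the probe with the highest mean, and levels of different probes were not set against each other.

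In RH36 cells every clade but D had a member detected on at least 1 array. By gene, 13 of 34 gave a signal well above background on every pre-control array, 2 on some of them (SERPINA2 and SERPINC1) and 19 on none, where 68.2% of all probes passed on every pre-control array. Detection was part of the choice of this family and was not tested. Detection on all 6 arrays was reached by 12 members, SERPINA1, SERPINA3, SERPINA6, SERPINB1, SERPINB2, SERPINB6, SERPINB8, SERPINE2, SERPINF1, SERPING1, SERPINH1 and SERPINI1, against 68% of all probes. No array at all detected 17 members. By clade, every pre-control array detected 3 of 12 genes of clade A, 4 of 13 of clade B, 0 of 1 of clades C and D, 1 of 2 of clade F, the single genes of clades E, G and H, and both genes of clade I.

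The members lie largely in gene clusters, and detection was uneven inside each. On hg18, probes of 11 clade A genes span 362.8 kb (chr14:93819945-94182794), and 3 of these genes were detected on every pre-control array. Probes of 10 clade B genes span 483.7 kb (chr18:59321878-59805576), of which SERPINB2 and SERPINB8 were detected. Of the 3 clade B genes within 116.6 kb on chromosome 6 (chr6:2777655-2894270), SERPINB1 and SERPINB6 were detected and SERPINB9 was not. SERPINB5 (maspin), SERPINB3 and SERPINB4 (the squamous cell carcinoma antigens), typical of epithelia, had no detected signal on any array. The last 2 genes are near-identical copies, so a signal on either probe could not have been assigned to one of them with certainty.

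Promoters were available in the RefSeq table for 26 of the 34 members, as windows of 250 bases before and 50 after the gene start, and were compared because the rule used no sequence. CpG dinucleotides per window had a median of 8 (range 1 to 32) in the 11 matched members detected on every pre-control array and 3 (range 0 to 35) in the 14 detected on no array, against 14 over 27305 promoters. The TATA letters TATAAA, searched on both strands, stood in 6 of the 26 windows (23.1%), against 12% of all promoters. The palindromic E-box CAGCTG, which myogenic bHLH factors can bind, stood in 5 of 26 (19.2%), against 17.7%. These counts describe letters in a window, and no test was run on them.

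**Figure D1:**
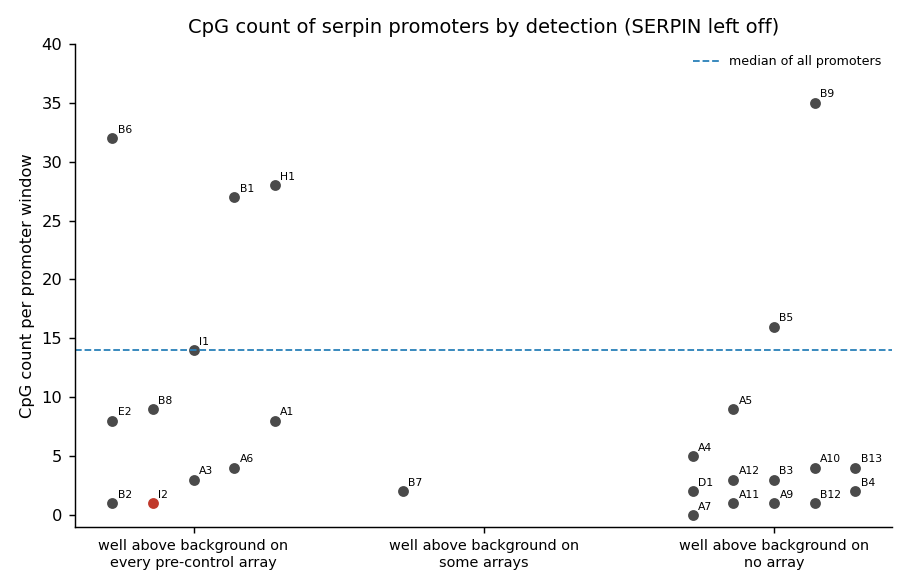
Number of CpG dinucleotides in the promoter window of each matched serpin, by where its probe was well above background. SERPINB6, SERPINH1 and SERPINB1 hold 32, 28 and 27, undetected SERPINB9 holds 35, and SERPINI2 (red) holds 1; the dashed line is the median of all promoters, 14.

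Between the groups, none of the compared members taken by name passed the threshold in the main limma fit, which has no term for the replicate number. SERPINA6 and SERPINB8 passed it, both lower with pre-miR-27a, when that number was added as a block. Some of the alternative settings given at the end also called members. Of the 34 genes, 30 had enough found spots to be compared (SERPINA9, SERPINA11, SERPINB10 and SERPINB12 did not). Of their differences, 21, SERPINI2 among them, lay below 0 and 9 above it. Over all probes compared, 19555 lay below 0 and 16914 above it. No array detected 13 of the 30 members, and of these 9 lay below 0 and 4 above it. Among all 36469 probes compared, limma with an adjusted p under 0.05 called 3.88% lower and 3.95% higher with pre-miR-27a. It called 0 of the 29 other members. Of these, 4 had an unadjusted limma p under 0.05, where 9037 of all 36469 probes did so. Significance analysis of microarrays (SAM) was run unpaired, at false discovery rates of 1.9% and 5%, on probes with complete values. Of the 25 serpins there, SERPINI2 among them, SAM called none of the others. The median log2 difference was −0.10 with or without SERPINI2, against −0.02 over all probes, where the median standard error was 0.14. In RNA from whole cultures, fewer cells with a transcript and less of it per cell cannot be told apart. Every pre-miR-27a array lay below every pre-control array for 4 of the 29 and above for 1 (SERPINA12), where 17.8% and 14.8% of all probes did so.

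**Figure D2:**
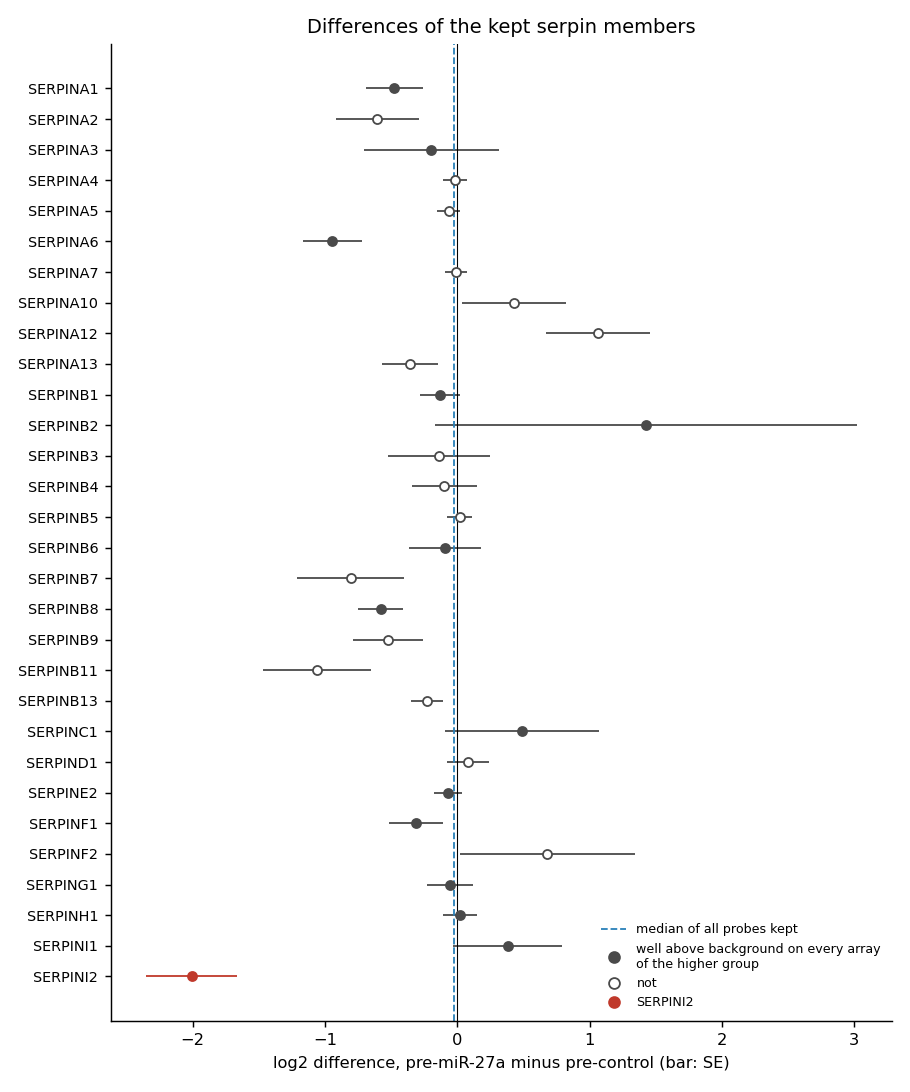
Log2 difference (pre-miR-27a minus pre-control) of the 30 compared serpins, with bars of 1 SE from limma on 3 arrays per group. Open points are members that some array of the higher group did not detect; SERPINI2, chosen for this difference, is at −2.00 and the other members with filled points range from −0.94 (SERPINA6) to 1.43 (SERPINB2, on 1 flagged spot).

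SERPINI2, also called pancpin, is a clade I serpin known from the pancreas, and its probe, chr3:168646919-168649812 on hg18, gave values of 5.07, 5.31 and 5.56 in pre-control and 3.81, 2.57 and 3.55 in pre-miR-27a cells. All 3 pre-control values lay above all 3 others. The difference was −2.00 (SE 0.34), and its signal was well above background on 3 of 3 pre-control arrays and on 0 of 3 pre-miR-27a arrays. Only 4 of all probes (0.00976%) had that combination of flags, which was part of the choice of this gene. Among probes well above background, the lowest signal was 4.63, 5.00 and 4.37 on the pre-control arrays. On the pre-miR-27a arrays it was 3.78, 3.61 and 4.18. Since the pre-miR-27a signals were not well above background, only a bound can be given. After the background subtraction of the software, the signal was at least 2.73-fold lower. This bound sets the pre-control mean of 5.32 against a mean detection floor of 3.87 and holds for that subtraction only. Under normexp correction, described below, the difference was −0.44. Among the other members the next largest differences below 0 were those of SERPINB11 (−1.06, named after its values were seen, not well above background on any array) and SERPINA6 (−0.94).

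The SERPINI2 spot was dim on every array. Its mean signal was 220.9 to 253.2 intensity units in the pre-control group, of which 183.6 to 197.0 were subtracted as background, leaving 37.2 to 55.3. On pre-miR-27a arrays the mean signal was 78.7 to 84.9, the subtracted background 71.7 to 74.6 and the remainder 5.02 to 13.3. The subtracted background thus differed between the groups by more than the remaining signal, and its part in the difference was not tested. With normexp correction of the mean signal and the local background in its place, which also adds an offset of 50 units, the difference was −0.44. The shares of the offset and of the background in that shift were not separated. Of the markers of pancreatic acinar cells, 1 of 6 was well above background on every pre-control array and 3 of 6 on no array.

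**Figure D3:**
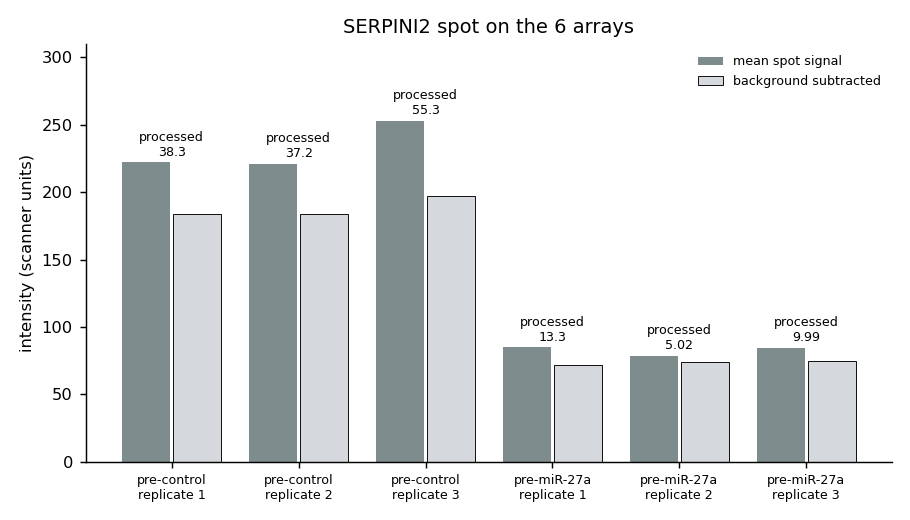
Mean intensity of the SERPINI2 spot (dark bars) and the background subtracted from it (light bars) on each of the 6 arrays, in scanner units, with the processed signal written above. The remainder is 37.2 to 55.3 in the pre-control group and 5.02 to 13.3 after pre-miR-27a.

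SERPINI1 (neuroserpin, an inhibitor of tissue plasminogen activator in neurons) is the other clade I gene and lies near SERPINI2 on chromosome 3, its probe at chr3:168990902-168990961. Its values were 10.43, 10.58 and 11.35 in pre-control and 10.85, 10.71 and 11.95 in pre-miR-27a cells. The groups overlapped, while the pre-miR-27a array was the higher in all 3 pairs of one replicate number. The difference was 0.38, with SE 0.41 and limma adjusted p = 0.628, or with SE 0.12 and limma adjusted p = 0.110 with the replicate block. Both genes are shown by the 250 bases before their RefSeq start (GRCh38.p14), written 5′ to 3′ along each gene's own strand with CG dinucleotides in capitals, because neighbours of one clade differ here in base composition. SERPINI2 is on the minus strand at chr3:167476964-167477213 and holds 1 CG, and SERPINI1 is on the plus strand at chr3:167735471-167735720 and holds 9.
SERPINI2: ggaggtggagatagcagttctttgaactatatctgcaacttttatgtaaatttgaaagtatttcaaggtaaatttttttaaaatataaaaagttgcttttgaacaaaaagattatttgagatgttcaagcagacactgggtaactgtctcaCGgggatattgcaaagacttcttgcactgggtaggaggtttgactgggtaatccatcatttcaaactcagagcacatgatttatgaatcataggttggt
SERPINI1: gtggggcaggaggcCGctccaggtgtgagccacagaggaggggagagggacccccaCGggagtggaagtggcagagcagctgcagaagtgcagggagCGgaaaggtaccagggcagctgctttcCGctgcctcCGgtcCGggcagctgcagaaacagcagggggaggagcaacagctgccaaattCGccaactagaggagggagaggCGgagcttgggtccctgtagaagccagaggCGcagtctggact
The SERPINI1 window holds CAGCTG 4 times and TATAAA not at all, and the SERPINI2 window holds TATAAA once and CAGCTG not at all. Of the genes on either side, GOLIM4 (GOLPH4 in the files), a Golgi membrane protein, rose from 8.53, 8.46 and 8.32 to 9.05, 8.96 and 8.89 (difference 0.53, SE 0.09, limma adjusted p = 0.0321), a call that was lost without any one of the 6 arrays. PDCD10 gave a difference of 0.32 (limma adjusted p = 0.0851), and WDR49 and ZBBX (FLJ23049 in the files) were not well above background on any array.

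Among clade A, SERPINA6 had the largest difference of the members detected on all 6 arrays once SERPINB2 is set aside. SERPINA6 (corticosteroid-binding globulin, the plasma carrier of cortisol) gave 7.27, 8.05 and 7.43 in pre-control and 6.53, 6.80 and 6.60 in pre-miR-27a cells. The groups did not overlap, but the difference of −0.94 (SE 0.22) missed the threshold (limma adjusted p = 0.0622). Adding the replicate number to the limma fit as a block gave an adjusted p of 0.0373. Its spots measured 364.6 to 410 intensity units before subtraction in the pre-control group and 161.4 to 180.7 after pre-miR-27a, with 153.9 to 182.3 and 70.2 to 71.2 units subtracted. Under normexp correction the SERPINA6 difference was −0.63 (limma adjusted p = 0.0327).

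SERPINA1 (alpha-1-antitrypsin, the main plasma inhibitor of neutrophil elastase) gave 5.95, 6.48 and 5.94 in pre-control and 5.86, 5.76 and 5.33 in pre-miR-27a cells. All pre-miR-27a values were the lower, with a difference of −0.48 (SE 0.21, limma adjusted p = 0.242). Under normexp correction that difference was −0.17 (limma adjusted p = 0.412). SERPINA3 (alpha-1-antichymotrypsin, an inhibitor of cathepsin G) gave 6.19, 7.87 and 5.96 against 6.43, 6.55 and 6.46. One pre-control array stood above the rest, and the difference was −0.20 (SE 0.51, limma adjusted p = 0.858). The other clade A members were not well above background on every array of either group. Among them SERPINA12 (vaspin, an adipokine), named after its values were seen, had a difference of 1.07 (SE 0.39, limma adjusted p = 0.169) and no array detected it. Without pre-control replicate 1, whose value of 3.76 stood near the pre-miR-27a values, its difference was 1.59 (limma adjusted p = 0.0435).

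None of the 4 clade B members detected on all 6 arrays passed the test in the main limma fit, which has no replicate block. SERPINB8, an intracellular inhibitor of furin, gave 8.34, 8.79 and 8.74 in pre-control and 7.82, 8.11 and 8.21 in pre-miR-27a cells. The groups did not overlap, with a difference of −0.58 (SE 0.17, limma adjusted p = 0.103), and an adjusted p of 0.0338 with the replicate block. A second SERPINB8 probe gave −0.19 (limma adjusted p = 0.643), a smaller size that was not tested against the first.

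SERPINB1 (an inhibitor of neutrophil serine proteases) gave 10.61, 10.51 and 10.94 against 10.49, 10.44 and 10.74, with overlapping groups and a difference of −0.13 (SE 0.15, limma adjusted p = 0.647). Its second probe read 10.88, 10.55 and 11.07 against 10.23, 10.05 and 10.49, a difference of −0.58 (SE 0.18, limma adjusted p = 0.117, and 0.0334 with the replicate block). Only the second of these 2 probes kept the groups apart. SERPINB6, an inhibitor of cathepsin G, gave 8.13, 7.66 and 8.28 against 7.96, 7.47 and 8.36, with overlapping groups and a difference of −0.10 (SE 0.27, limma adjusted p = 0.874).

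The value of SERPINB2 rests on 1 spot. SERPINB2 (plasminogen activator inhibitor 2) gave 6.56, 7.28 and 6.86 in pre-control and 12.09, 6.65 and 6.23 in pre-miR-27a cells. The value of 12.09 comes from a spot flagged as non-uniform, with a mean of 3700.6, a median of 170.5 and a pixel SD of 6605.3 intensity units. The difference was 1.43 (SE 1.59, limma adjusted p = 0.641) with that array, pre-miR-27a replicate 1, and −0.45 without it. A second SERPINB2 probe, not well above background on any array, gave −0.52 (SE 0.25, limma adjusted p = 0.264).

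The detected members of clades E, F, G and H overlapped between the groups. SERPINE2 (protease nexin 1, an inhibitor of thrombin and urokinase) gave 10.49, 10.17 and 10.40 against 10.29, 10.25 and 10.30, a difference of −0.07 (SE 0.10, limma adjusted p = 0.742). It did not pass the test. The proteins of clades F, G and H are mostly found outside the cell or in its secretory pathway. SERPINF1 (pigment epithelium-derived factor, a secreted non-inhibitory serpin that restrains angiogenesis) gave 14.54, 13.98 and 14.35 against 14.12, 13.66 and 14.16, a difference of −0.31 (SE 0.20, limma adjusted p = 0.407). SERPING1 (C1 inhibitor, which restrains complement and the contact system) gave 9.47, 9.90 and 9.48 against 9.35, 9.79 and 9.53, a difference of −0.06 (SE 0.17, limma adjusted p = 0.883). SERPINH1 (Hsp47, which assists procollagen folding in the endoplasmic reticulum) gave 13.32, 13.14 and 13.48 against 13.51, 13.21 and 13.29, a difference of 0.02 (SE 0.13, limma adjusted p = 0.944). The liver serpin SERPINC1 (antithrombin) was well above background on 1 pre-control and all 3 pre-miR-27a arrays, with 5.53, 3.55 and 3.94 against 5.48, 4.40 and 4.62 and a difference of 0.49 (SE 0.58, limma adjusted p = 0.664). SERPINF2 (alpha-2-antiplasmin) differed by 0.68 (SE 0.66), with a non-uniform spot on 1 pre-miR-27a array.

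**Figure D4:**
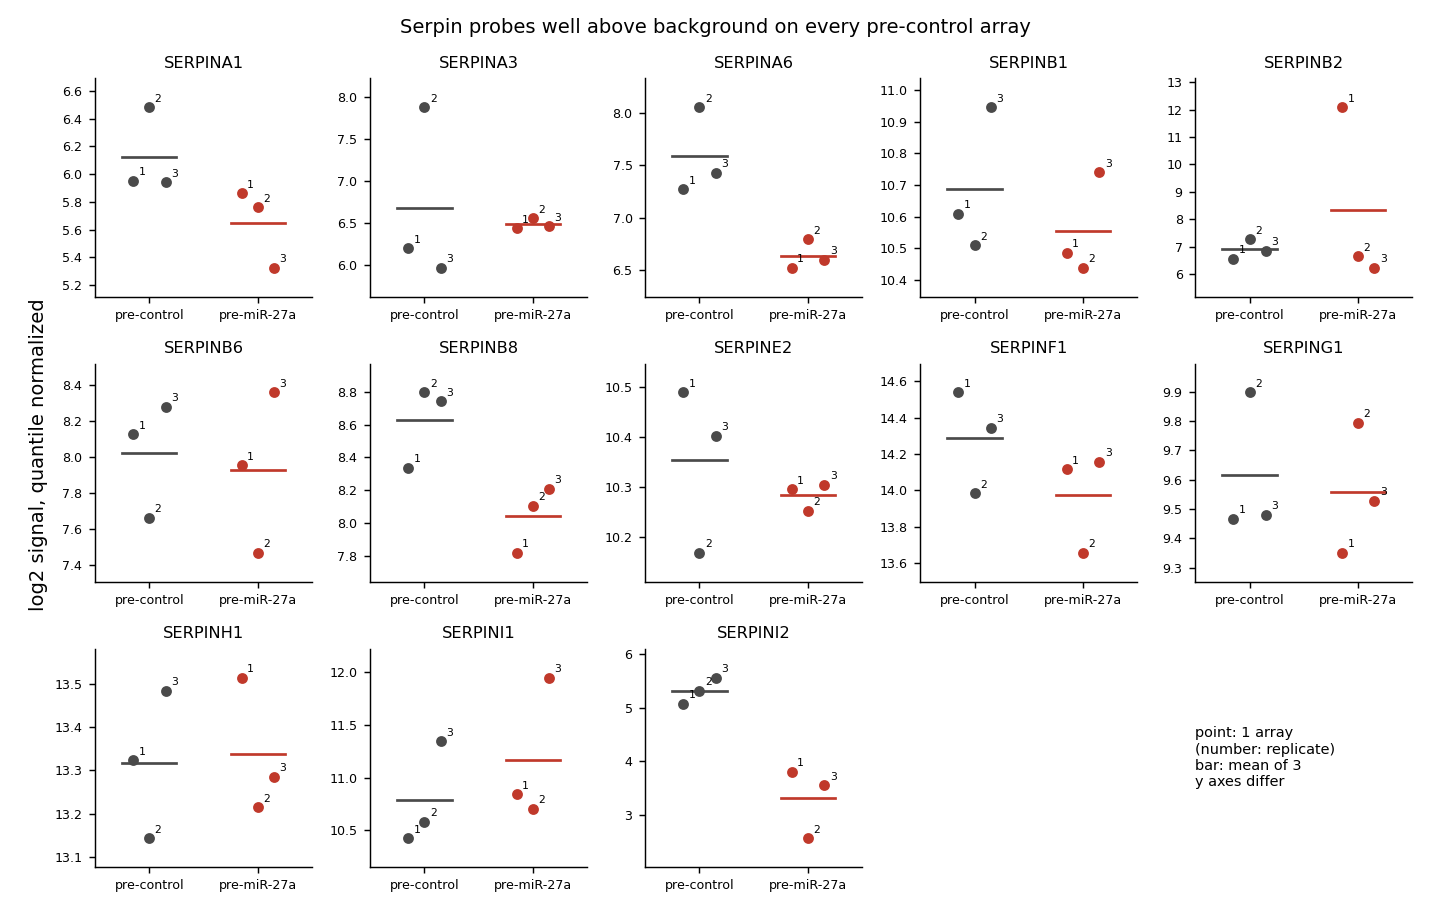
Log2 normalized signal of the 13 serpins well above background on every pre-control array, 1 panel per gene with its own axis, points numbered by replicate and bars at the mean of 3 arrays. SERPINI2, SERPINA6, SERPINB8 and SERPINA1 show no overlap between the groups, and the SERPINB2 point at 12.09 is the flagged spot.

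In several serpins the spread between replicate numbers was wider than the difference between the groups. In 10 of the 12 members detected on all 6 arrays, the range between the means of the 3 replicate numbers was larger than the difference between the groups, a comparison in which a range over 3 numbers has the wider reach. The range was 1.01 for SERPINI1, 1.00 for SERPINA3 and 0.75 for SERPINB6. The order of the 3 numbers was the same in both groups for 4 of the 12 (SERPINA6, SERPINB1, SERPINB6 and SERPING1). With that block, limma called 7.62% of all probes lower and 7.24% higher, and of the 29 members other than SERPINI2 it called 2 lower (SERPINA6 and SERPINB8) and 0 higher.

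**Figure D5:**
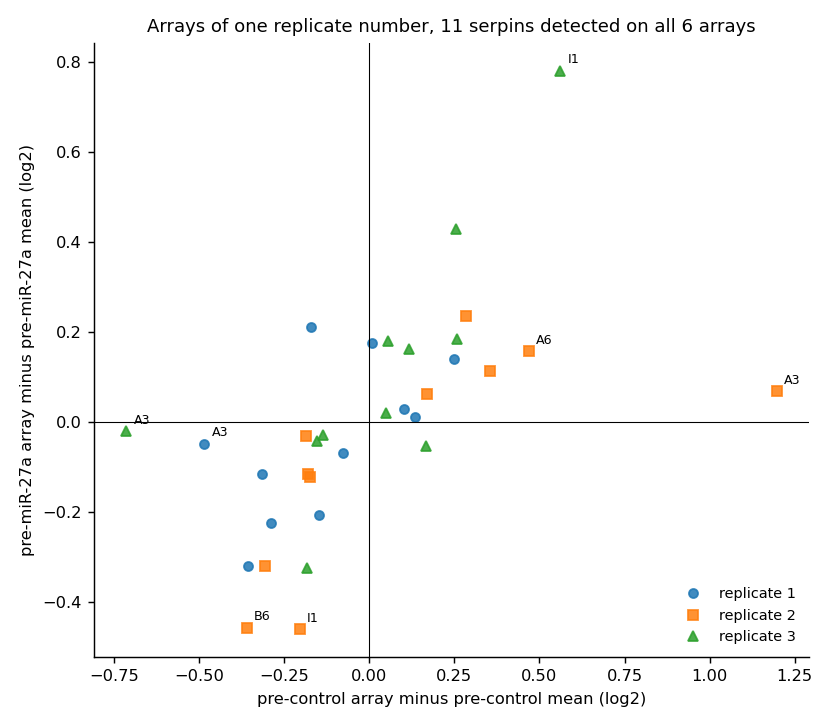
Deviation of each array from its group mean (log2) for 11 serpins detected on all 6 arrays (SERPINB2 left out for its flagged spot), pre-control on the horizontal axis and the pre-miR-27a array of the same number on the vertical axis. In 31 of 33 pairs both arrays lie on the same side of their means, with SERPINI1 farthest up for replicate 3. The points of a gene are not independent, since deviations cancel within each group.

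Genes that serpins work on or with were taken from a list of 85 target proteases, receptors, collagen folding partners and other protease inhibitors, of which 83 were on the array and 77 were compared. Of these, 9 fell and 0 rose by limma, where 3.88% of all probes fell, and the median difference was −0.17, against −0.02 over all probes. The count was 2 without pre-control replicate 1 and 0 without any other single array. The target proteases that fell were TMPRSS2 (−0.85, limma adjusted p = 0.0222), KLK14 (−0.80, limma adjusted p = 0.0208), F7 (−0.76, limma adjusted p = 0.0306) and GZMM (−0.53, limma adjusted p = 0.0460), out of 39 compared. A second F7 probe, which passed the background flag on 1 pre-miR-27a array only, gave −0.13 (limma adjusted p = 0.888). KLK14, a kallikrein of the skin, read 9.34, 9.68 and 9.48 in pre-control and 8.67, 8.73 and 8.70 in pre-miR-27a cells, and F7, coagulation factor VII, read 7.88, 7.99 and 7.97 against 7.31, 7.32 and 6.92.

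Of 14 receptors and cofactors, VTN (vitronectin, an adhesive glycoprotein of plasma and matrix) read 7.24, 7.42 and 7.07 against 6.26, 6.48 and 6.33 and fell by 0.89 (limma adjusted p = 0.0210). PNPLA2, a lipase described as a receptor of SERPINF1, fell by 0.58 (limma adjusted p = 0.0248). The other protease inhibitors that fell were SLPI (−0.77, limma adjusted p = 0.0246) and PI3 (−0.68, limma adjusted p = 0.0234), which block neutrophil elastase, and CST3 (−0.56, limma adjusted p = 0.0408), a cysteine protease inhibitor. A second SLPI probe, not well above background on any array, gave −0.37 (limma adjusted p = 0.546). Of the 12 collagen folding partners of SERPINH1, all were well above background on every pre-control array and 0 were called, or 1 higher with the replicate block (PPIB), with a median difference of 0.04. The plasminogen activators PLAU and PLAT, which SERPINE2 can inhibit, gave differences of −0.13 (limma adjusted p = 0.766) and 0.06 (limma adjusted p = 0.912). In the marker lists, by the brightest probe, limma called 2 of 6 compared squamous markers lower, KRT14 (−0.82) and KRT4 (−0.59). It also called lower 1 of 4 leukocyte markers, CD3E (−0.44), and 1 of 5 fibroblast markers, THY1 (−0.57). Second probes of KRT14 and CD3E were not called lower. For KRT14 the difference was 1.14 (limma adjusted p = 0.379), called higher with the replicate block (adjusted p = 0.0334). That dim probe passed the background flag on 1 pre-miR-27a array only. For CD3E the difference was −0.05 (limma adjusted p = 0.874), and every array detected the probe. None of the 8 myogenic markers was called, and MYOD1, MYOG and CDH15 were called lower with the replicate block. The brightest CHRNA1 probe differed by −0.15. A second CHRNA1 probe, well above background on every array, was called higher (0.95, limma adjusted p = 0.0216, and 0.0334 with the replicate block). With that block, and by the brightest probe, KRT4 was no longer called (adjusted p = 0.0566). TP63 and COL1A1 were then called lower (adjusted p = 0.0395 and 0.0466). The part of other cells or of the myogenic state in the differences of the serpins and their partners was not tested.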

How the data were processed

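Expression was measured in 6 RH36 cultures on 1-colour (Cy3) arrays. The authors deposited spot intensities from Feature Extraction 10.5.1.1, with background subtracted within each array and quality flags, and a table of log2 values normalized between arrays, used as an alternative. Without control spots, processed intensities were put on a log2 scale and quantile normalized, spots not found were set to missing, replicate spots were averaged, and probes missing on more than 1 array were removed (36469 of 41000 kept). limma 3.58.1 in R 4.3.3 compared the groups with Benjamini-Hochberg adjustment over all probes and a threshold of 0.05. SAM was computed as an unpaired comparison, without the replicate numbers, on 31717 complete probes with 20 relabellings. The p-values set the difference between the groups against the spread of these samples around the fit. Since each slide held 1 group, that spread holds no variation between slides. With 3 arrays per group an exact permutation test cannot go below 0.1, and the number of arrays limits precision. Same-numbered arrays deviated together (correlations 0.40, 0.46 and 0.41 over 31717 probes, against −0.27 to −0.12 between numbers). Deviations from a group mean cancel within the group, so the correlations between numbers are not independent of the others. On this basis the numbers, which the labels give and which are also slide positions, were taken to pair the arrays. Blocked values or counts are given where calls changed. A spot's flag for a signal well above background counted for a probe where it held on no fewer of its spots than it failed. The detection floor of an array is its lowest signal among probes well above background, or the dim probe's own signal where that is higher.

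Alternatives were 75th percentile scaling, normexp correction (offset 50), no filter, a filter on probes well above background on at least 3 arrays, the replicate block, the deposited values, limma with a variance trend, SAM at 1.9% and 5%, other probes of a gene, leaving out each array and, chosen after seeing the data, leaving out outlier spots. One gene that the rule selects is not reported here. Scripts were tested on simulated data. Members, lists and the rule for named genes were chosen with earlier results of these data known. The named genes were both clade I genes, members detected on all 6 arrays, members called, members differing by at least 1 and detected on every array of the higher group, SERPINA1, SERPINC1, SERPINB5 and called partner genes. Probe positions are those of the files (hg18), and promoter and miRNA sequences are from RefSeq (GRCh38.p14).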

Additional observations from a re-analysis of the deposited data

How the results depend on the processing

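No block for the slide was possible, since each slide held 1 group, and dim probes give only bounds. The number of all probes called was 2856 (1416 lower, 1440 higher), 5421 with the replicate block, 424 with SAM at 1.9% (11 lower, 413 higher) and 1836 with SAM at 5% (577 lower, 1259 higher). It was 3527 of 36469 with normexp, 3768 of 30519 with the filter on probes well above background and 3343 of 33169 with the deposited values. Under 75th percentile scaling, 39.2% of the calls were higher (1275 higher, 1981 lower), against 50.4%. Leaving out 1 array gave 0 to 1195 calls, with 1195 without pre-control replicate 1 and 0 without any other single array, where 7395 to 8544 probes had an unadjusted p under 0.05. Fewer arrays were tested in each of these. Counts of serpins called with all arrays include SERPINI2, which was chosen on this difference, so its call is no result, except with SAM at 1.9%. The count was 1, and it was 6 with 75th percentile scaling. The others there were SERPINA6 and, with no array detecting them, SERPINA4, SERPINB4, SERPINB9 and SERPINB13. The count was 3 with normexp and 3 with the replicate block (the others SERPINA6 and SERPINB8). It was 2 of 14 tested with the filter on probes well above background and 2 of 18 tested with the deposited values (the other SERPINA6). It was 0 with SAM at 1.9%, and 0 to 1 without one array. That 1 was SERPINA12, which no array detected, without pre-control replicate 1 (1.59, limma adjusted p = 0.0435). SERPINA6 had an adjusted p of 0.0356 with 75th percentile scaling, 0.0327 with normexp, 0.0386 with the filter and 0.0473 with the deposited values, and SERPINB8 of 0.0464 with normexp. Among the other serpins the block changed the call of the second SERPINB1 probe only, and among partner genes it gave 12 lower and 1 higher (PPIB). The median difference of the serpins was −0.10, with −0.546 under 75th percentile scaling, −0.016 under normexp, −0.167 with the deposited values and −0.151 to −0.065 without one array, and that of all probes was −0.02 and −0.09 under 75th percentile scaling. The SERPINI2 difference kept its sign throughout, at −2.00, −0.44 under normexp and −2.22 to −1.64 without one array. Its bound was 2.498-fold to 3.045-fold without one pre-miR-27a array, for the background subtraction of the software only. Detected serpins numbered 13 by the flag for a signal well above background, and 32 by the flag for a found spot. Partner genes called numbered 9, 14 with normexp and 0 to 2 without one array, and neighbours called 1, and 0 without any one array. The cause of these shifts was not tested. Of the values under the alternatives of the 12 serpins detected on all 6 arrays and of SERPINC1 and SERPINB5, 173 kept sign and side of the threshold, 7 passed the threshold and 14 changed sign. SERPINB5 was at −0.85 and SERPINH1 at −0.060 with 75th percentile scaling, and SERPINB2 at −0.45 without its flagged spot. Without one array, the difference ranged from −0.56 to 0.40 for SERPINA3, −0.45 to 2.48 for SERPINB2, −0.054 to 0.053 for SERPINB5, −0.31 to 0.13 for SERPINB6, −0.17 to 0.085 for SERPING1, −0.067 to 0.10 for SERPINH1 and −0.0069 to 0.66 for SERPINI1.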
